A study of Homo sapiens with 14 samples.

Results

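Transcript levels in KYSE510 cells given the siRNA siEZH2-1 were compared with those in KYSE510 cells given the negative control siRNA siNC. KYSE510 is a human esophageal squamous cell carcinoma line, and a small interfering RNA (siRNA) is a short duplex that directs the cell to degrade transcripts it matches. Each group had 2 libraries, so 4 of the 14 samples of the series make up the comparison. All were grown in RPMI-1640 with serum, transfected with lipofectamine RNAiMAX and harvested for total RNA 48 h later, siNC included. A second siRNA to EZH2, siEZH2-2, also with 2 libraries, entered the model so that 3 groups shared 1 estimate of the spread. The experiment is 1 cell line with transient knockdown, and the labels do not say whether both libraries of a group are separate cultures. The p-values then describe only the variation among these libraries, and part of it may be technical. Levels are in FPKM, reads or fragments scaled by gene length and library depth, and differences are on the log2(FPKM + 1) scale, which understates the change of low genes. Of 63677 genes listed, 11585 averaged 1 FPKM or more across the 6 libraries and were tested. The filter fell between means of 0.998 and 1.002 FPKM.

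EZH2 is the catalytic subunit of Polycomb repressive complex 2 (PRC2), which methylates lysine 27 of histone H3. It works together with the core subunits EED and SUZ12, and EZH1 is its paralog. The mark is associated with silent developmental genes, and PRC1 is the complex that recognises it through its CBX subunits. In squamous cancers EZH2 is often abundant, and its methyl donor, S-adenosylmethionine, is made from methionine that enters the cell through carriers such as LAT1. SLC7A5 encodes LAT1, and SLC3A2 encodes the heavy chain that LAT1 pairs with.

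The replicates correlated at r = 0.994 across genes in siEZH2-1 and in siNC. Estimated depth was 27200000 and 21300000 counted reads or fragments with siEZH2-1 and 24200000 and 23500000 with siNC. The 7 squamous markers summed to 547 and 551 FPKM with siEZH2-1 and 575 and 618 FPKM with siNC, with KRT5 the highest and 6 of 7 at 1 FPKM or more on average. KRT8 and KRT18, markers of simple epithelium, summed to 535 and 591 FPKM against 492 and 542 FPKM. Sums over 11 fibroblast, 15 immune and 8 endothelial markers stayed at or below 1.42 FPKM in each of the 4 libraries. Of these, 4, 2 and 3 markers were listed at 0 in all 6 libraries.

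EZH2 stood at 6.63 and 7.24 FPKM with siEZH2-1 and at 17.05 and 17.10 FPKM with siNC. Both knockdown libraries were far below both control libraries, at 40.6% of the siNC mean, and the log2 difference was -1.19 (95% interval -1.35 to -1.03, limma adjusted p = 2.31e-04). The targeted transcript was therefore lower in the libraries labelled for it, and many other genes passed the same test. In all, 3156 of 11585 genes (27.2%) had an adjusted p under 0.05 by limma with Benjamini-Hochberg adjustment, 1841 higher (15.9%) and 1315 lower (11.4%). Most changes were small, with a median absolute log2 difference of 0.41 among called genes. A log2 difference of at least 1 was reached by 76 called rises (0.656%) and 83 called falls (0.716%). The middle 90% of all log2 differences ran from -0.48 to 0.51, against -0.20 to 0.26 between the siEZH2-1 replicates and -0.23 to 0.25 between the siNC replicates. In 67.3% of genes the siEZH2-1 libraries did not overlap the siNC libraries, so separation of a single gene's groups is common here. All 3156 called genes were separated in this way, so for a called gene the separation adds no further support.

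Leaving out 1 of the 4 libraries compared gave 1875 calls without siEZH2-1 replicate 1, 1201 without siEZH2-1 replicate 2, 1266 without siNC replicate 1 and 2036 without siNC replicate 2. In these fits the remaining library of the reduced group is assumed to vary like the other groups. Counts for most gene groups below are followed by the counts with these libraries left out, always in the order siEZH2-1 replicate 1, siEZH2-1 replicate 2, siNC replicate 1, siNC replicate 2. The share of a group that was called stands beside 15.9% higher and 11.4% lower over all tested genes, and a share near these says nothing about the group. Of 165 called genes singled out by the naming rule, 126 stayed called in all of these fits, and the adjusted p of each of the others is given where it is named.

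**Figure D1:**
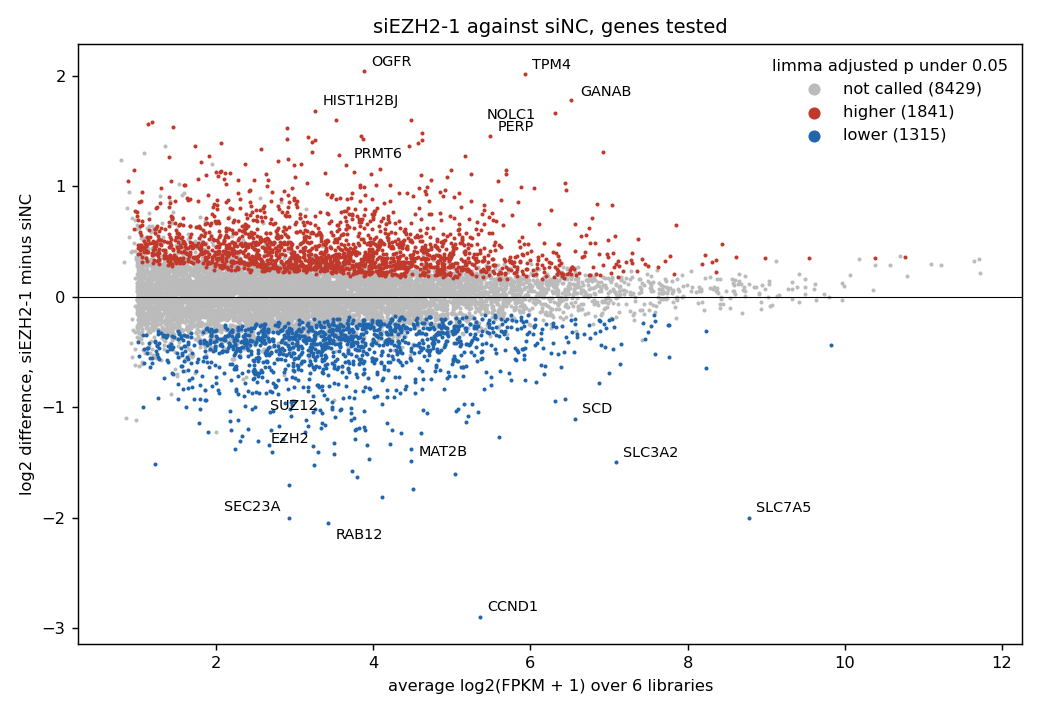
Log2 difference (siEZH2-1 minus siNC) of each of the 11585 tested genes against its average log2(FPKM + 1) over 6 libraries. Points are genes, coloured by the limma call at an adjusted p under 0.05. CCND1 lies lowest at -2.89, SLC7A5 is the abundant gene at -1.998, and OGFR and TPM4 lie highest at 2.04 and 2.01.

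Among the 13 tested PRC2 subunits 2 fell and 5 rose (2 fell in each fit with a library left out, and 2 rose in each). The falls were 15.4% of these subunits, against 11.4% of all tested genes, and the rises 38.5%, against 15.9%. SUZ12, the zinc finger subunit that PRC2 needs for its stability, stood at 6.08 and 5.36 FPKM with siEZH2-1 and at 14.23 and 12.40 FPKM with siNC. Its levels did not overlap and were 43.0% of control, nearly the same proportion as EZH2 itself (log2 difference -1.09, limma adjusted p = 9.87e-04). With siEZH2-2 SUZ12 stood at 13.64 and 15.87 FPKM, and the direct test between the siRNAs gave a log2 difference of 1.23 (95% interval 0.98 to 1.47, limma adjusted p = 8.70e-04). Reads of SUZ12 and of its pseudogene copy SUZ12P cannot be fully told apart. SUZ12P was at 3.48 and 2.91 FPKM with siEZH2-1 and 2.70 and 2.37 FPKM with siNC.

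EED, the subunit that binds the methylated histone tail, was at 11.08 and 10.81 FPKM against 11.79 and 11.62 FPKM, and did not pass the test (log2 difference -0.09, limma adjusted p = 0.288). JARID2, an accessory subunit that helps place PRC2 on DNA, rose by 0.54 on the log2 scale, from 4.67 and 4.36 to 7.14 and 6.87 FPKM. EZH1, at 4.33 and 4.06 against 3.33 and 3.45 FPKM, passed narrowly (log2 difference 0.24, limma adjusted p = 0.0498). That call was lost with each of the 4 libraries left out, at limma adjusted p values of 0.121 to 0.215. LCOR, which encodes an accessory PRC2 protein from one of its transcripts, had a log2 difference of 0.51, and its call was also lost in each of these fits, at 0.0573 to 0.172.

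Of 25 PRC1 subunits 4 were higher (16%; 2, 2, 2, 3), the share over all tested genes being 15.9%, and 5 were lower (20%, against 11.4%; 2, 1, 1, 3). BMI1, a RING-finger partner of the PRC1 ubiquitin ligase, fell from 8.18 and 6.71 to 4.0 and 3.78 FPKM. CBX2, a chromodomain reader of the PRC2 mark, rose from 4.78 and 4.95 to 7.40 and 7.62 FPKM. The log2 differences were -0.78 for BMI1 and 0.54 for CBX2. Calls for PCGF5 at -0.46 and for the ligase subunit RING1 at 0.31 were lost without siEZH2-1 replicate 2 (limma adjusted p = 0.122 and 0.123) and without siNC replicate 1 (0.111 and 0.110), and RING1 also without siEZH2-1 replicate 1 (0.0527).

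Most genes known as Polycomb targets in development were too low to test. Of 92 such regulators 21 were tested, 2 of them higher (0, 0, 0, 1) and 5 lower (2, 3, 2, 4), with a median log2 difference of -0.13 against 0.03 over all genes tested. Of the tested regulators 9.52% were higher and 23.8% lower. Of the tested HOX genes given below it was 7.69% and 30.8%, and of all tested genes 15.9% and 11.4%. SOX7, an endoderm and endothelial transcription factor, fell from 5.86 and 6.77 to 2.73 and 2.62 FPKM. PAX9, a regulator of esophageal epithelium, fell from 6.26 and 5.91 to 3.99 and 3.68 FPKM. Both genes were lower in both knockdown libraries. ZIC2 had a log2 difference of -0.42, and its call was lost without siEZH2-1 replicate 1 (limma adjusted p = 0.0530) and without siNC replicate 1 (0.0564). PITX1 had a log2 difference of 0.41, with a limma adjusted p of 0.0467 that became 0.0918, 0.198 and 0.206 without siEZH2-1 replicate 1, siEZH2-1 replicate 2 and siNC replicate 1. Among 13 tested HOX genes of 39 listed, 4 were lower (1, 1, 1, 1) and 1 higher (0, 0, 0, 1). HOXB4 had a log2 difference of -0.47 and lost its call without siEZH2-1 replicate 1 (0.0551) or siNC replicate 2 (0.0527), and HOXB7, at 0.30, lost it without either siEZH2-1 library (0.0924 for replicate 1 and 0.141 for replicate 2) and without siNC replicate 1 (0.149).

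Enzymes that write or erase methyl groups on histones and DNA were called about as often as all tested genes, 9 of 55 higher (16.4%, against 15.9%; 7, 7, 6, 7) and 5 lower (9.09%, against 11.4%; 1, 0, 0, 2). PRMT6, an arginine methyltransferase, stood at 37.52 and 37.26 FPKM with siEZH2-1 and at 13.25 and 14.12 FPKM with siNC. Its groups were widely separated, at a log2 difference of 1.39 (SE 0.06, limma adjusted p = 9.77e-05). SETD7, a lysine methyltransferase, rose by 1.02, DOT1L, which methylates lysine 79 of histone H3, by 0.72, and KDM2A, a demethylase, by 0.70 on the log2 scale. No member of this list was lower by 1 or more.

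The amino acid carrier LAT1 was among the largest falls of the whole comparison. SLC7A5 stood at 184 and 193 FPKM with siEZH2-1 and at 733 and 777 FPKM with siNC. Both knockdown libraries lay far below both controls, at 24.9% of the control mean, with a log2 difference of -1.998 (95% interval -2.13 to -1.87, limma adjusted p = 2.50e-05). SLC3A2, the heavy chain that carries LAT1 to the cell surface, stood at 67.7 and 71.6 FPKM against 189 and 209 FPKM. It was again clearly apart, at 35.1% of control and a log2 difference of -1.50 (95% interval -1.66 to -1.34, limma adjusted p = 1.09e-04). Both chains of the transporter thus fell, the light chain further.

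With siEZH2-2 SLC7A5 was at 596 and 591 FPKM and SLC3A2 at 180 and 172 FPKM. The direct test between the siRNAs gave log2 differences of 1.65 for SLC7A5 (95% interval 1.52 to 1.78, limma adjusted p = 8.66e-05) and 1.33 for SLC3A2 (1.17 to 1.49). Both chains were therefore lower with siEZH2-1 than with siEZH2-2, while EZH2 itself, at 6.40 and 6.04 FPKM with siEZH2-2, differed by -0.14 (95% interval -0.30 to 0.02, limma adjusted p = 0.223). Over all tested genes 16.3% differed between the siRNAs.

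Of 20 amino acid carriers tested, 7 fell (5, 3, 3, 4) and 1 rose (1, 0, 0, 0), with a median log2 difference of -0.13 against 0.03 over all genes. As shares, 35% fell, against 11.4% of all tested genes, and 5% rose, against 15.9%. SLC7A1, a carrier of arginine and lysine, fell from 37.8 and 34.9 to 25.8 and 23.8 FPKM. SLC38A1, a glutamine carrier, had a log2 difference of -0.68, and its call was lost without siEZH2-1 replicate 2 (limma adjusted p = 0.0646) or siNC replicate 1 (0.0606).

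Of 32 tested methionine, folate and polyamine enzymes 8 fell (25%, against 11.4% of all tested genes) and 4 rose (12.5%, against 15.9%). The list includes enzymes that turn methionine into S-adenosylmethionine and salvage its by-products. With the replicate number as a block in the model, 7 fell and 1 rose. MAT2B, which encodes the regulatory subunit of the enzyme that makes S-adenosylmethionine, was at 10.14 and 9.30 FPKM with siEZH2-1 and at 30.11 and 28.09 FPKM with siNC. That is 33.4% of control with no overlap (log2 difference -1.49, limma adjusted p = 1.09e-04). MAT2A, the catalytic subunit, fell less, from 68.3 and 69.6 to 49.4 and 49.8 FPKM, a log2 difference of -0.47 (limma adjusted p = 0.00123). APIP and MTAP, both enzymes of methionine salvage, fell by 1.22 and 0.76, and MTRR, which keeps methionine synthase active, fell by 0.56 on the log2 scale. APIP was at 4.16 and 3.55 FPKM against 10.41 and 10.17 FPKM, and with siEZH2-2 at 11.62 and 11.27 FPKM. The siRNAs differed for MAT2B by 1.70 (95% interval 1.54 to 1.85) and for MAT2A by 0.35 (0.23 to 0.46), both levels being lower with siEZH2-1.

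**Figure D2:**
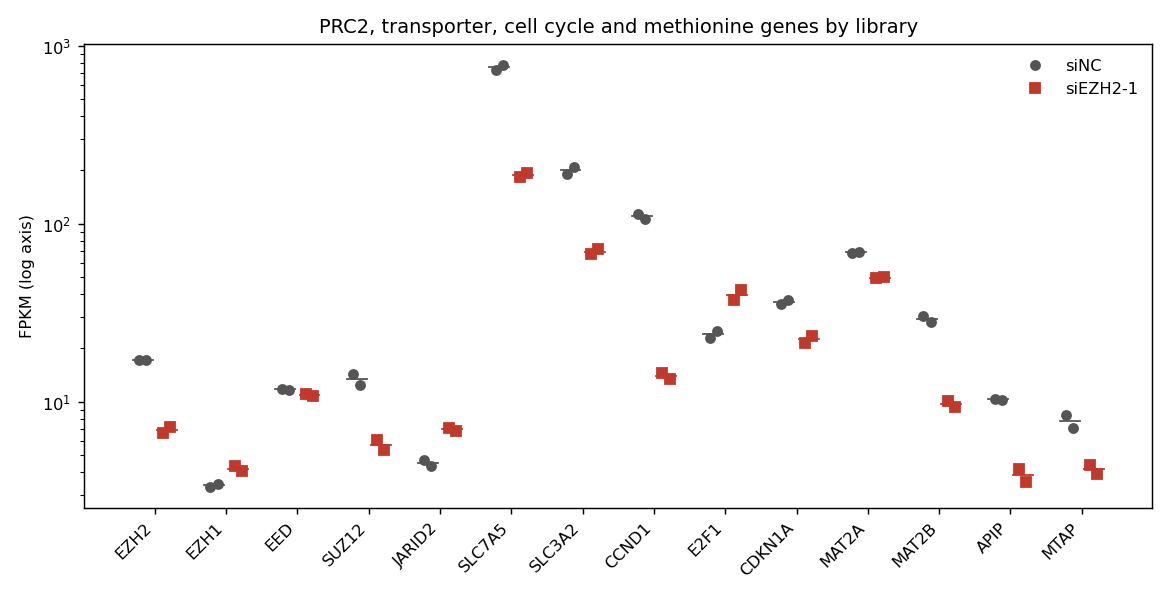
FPKM (log axis) of 14 genes in the 2 siNC libraries (grey circles) and the 2 siEZH2-1 libraries (red squares), with the group mean as a line. EZH2, SUZ12, SLC7A5, SLC3A2, CCND1, MAT2B, APIP and MTAP were lower in both siEZH2-1 libraries, E2F1 and JARID2 were higher, and EED was nearly level.

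Genes of the response to amino acid shortage were called about as often as all tested genes. ATF4, the transcription factor that drives this response, was at 128 and 137 FPKM with siEZH2-1 and 122 and 128 FPKM with siNC and did not pass the test (log2 difference 0.08). Of 33 tested members 6 rose (18.2%, against 15.9%; 3, 2, 2, 4) and 3 fell (9.09%, against 11.4%; 0, 0, 1, 0). Their median log2 difference was 0.01 against 0.03 over all genes. TRIB3, a pseudokinase induced by ATF4, rose from 13.6 and 14.5 to 24.7 and 28.0 FPKM, and ATF3, a stress-induced factor, from 14.3 and 14.9 to 21.9 and 22.8 FPKM. CEBPB and DDIT4 had log2 differences of -0.42 and -0.38. Without siEZH2-1 replicate 1, siEZH2-1 replicate 2 and siNC replicate 2 their limma adjusted p values were 0.0775, 0.0554 and 0.0741 for CEBPB and 0.0852, 0.0579 and 0.0814 for DDIT4, which also reached 0.0504 without siNC replicate 1.

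Of the 22 cytosolic aminoacyl-tRNA synthetases, which load tRNAs with amino acids, 3 rose (2, 2, 2, 2) and 1 fell (1, 0, 0, 1). That is 13.6% higher, against 15.9% of all tested genes, and 4.55% lower, against 11.4%. HARS, for histidine, rose by 0.57 and KARS, for lysine, by 0.40 on the log2 scale. TARS, for threonine, had a log2 difference of -0.29 and lost its call without siEZH2-1 replicate 2 (limma adjusted p = 0.0564) or siNC replicate 1 (0.0634). AARS, for alanine, at 0.21, lost it in all 4 fits (0.0528 to 0.194).

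Of 39 genes of the growth kinase mTORC1 and its amino acid sensors, 6 rose (4, 1, 1, 5) and 2 fell (0, 0, 0, 0). The rises made up 15.4%, against 15.9% of all tested genes, and the falls 5.13%, against 11.4%. AKT1S1, an inhibitory subunit of mTORC1, rose from 16.7 and 18.9 to 28.0 and 29.5 FPKM. LAMTOR4 and SEC13, at log2 differences of 0.50 and 0.40, lost their calls without siEZH2-1 replicate 2 (limma adjusted p = 0.0605 and 0.0725) or siNC replicate 1 (0.0524 and 0.0610). RPS6KB1, the S6 kinase, at -0.38, lost its call with any of the 4 libraries left out (0.0571 to 0.219).

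CCND1, which encodes cyclin D1, the partner of CDK4 and CDK6 that starts the passage from G1 to S phase, was the largest fall of all. It stood at 14.51 and 13.33 FPKM with siEZH2-1 and at 113 and 106 FPKM with siNC. The siEZH2-1 libraries held 12.7% of the control mean (log2 difference -2.89, 95% interval -3.07 to -2.71, limma adjusted p = 2.50e-05). With siEZH2-2 it was at 38.54 and 43.19 FPKM, higher than with siEZH2-1 by 1.49 on the log2 scale (95% interval 1.31 to 1.67). CDK4 was at 61.1 and 64.4 FPKM against 58.0 and 58.5 FPKM and did not pass the test (log2 difference 0.11).

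Of 28 tested genes of the G1 to S switch 5 were higher (17.9%, against 15.9% of all tested genes; 4, 4, 4, 4). CCND1 included, 4 were lower (14.3%, against 11.4%; 4, 3, 3, 4). E2F1, the transcription factor released when the retinoblastoma protein is phosphorylated, rose from 22.7 and 25.1 to 37.5 and 42.1 FPKM (log2 difference 0.71, limma adjusted p = 0.00209). CDKN1A, which encodes the inhibitor p21, fell from 35.5 and 37.2 to 21.5 and 23.3 FPKM. CDKN1B, which encodes p27, fell from 25.7 and 23.2 to 15.8 and 14.6 FPKM. A cyclin and 2 inhibitors of its kinases were therefore lower in the same libraries in which E2F1 was higher.

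Of 58 tested DNA replication genes 27 were higher (46.6%, against 15.9% of all genes) and 3 lower (5.17%, against 11.4%). Their median log2 difference was 0.17 against 0.03 over all genes, so the shift was small. In bulk RNA, more cells in S phase and more of a transcript per cell cannot be told apart. The number higher was 12, 11, 11 and 16 with a library left out, and 1 was lower in each of these fits. CDC45, part of the replicative helicase, rose from 17.2 and 18.9 to 27.3 and 28.5 FPKM. UNG, which removes uracil from DNA, rose from 44.6 and 46.0 to 65.8 and 66.8 FPKM, and POLA2, a subunit of the primase complex, from 12 and 12.46 to 17.5 and 17.9 FPKM. In all 3 genes, as in every called rise, both knockdown libraries lay above both controls, at log2 differences of 0.60, 0.54 and 0.50. DBF4, the activator of the CDC7 kinase that fires replication origins, went the other way, from 28.3 and 26.2 to 10.8 and 9.64 FPKM (log2 difference -1.34, limma adjusted p = 1.89e-04). It was higher with siEZH2-2 than with siEZH2-1 by 0.87 (limma adjusted p = 8.4e-04).

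E2F factors bind short words such as TTTCCCGC, TTTCGCGC, TTTGCCGC and TTTGGCGC. These 4 words were searched on both strands in the 250 bases before 1 start of each gene (RefSeq, GRCh38.p14). The start regions of POLA2 and E2F1, which rose, are shown because they hold such words, in capitals.
POLA2, chr11:65261712-65261961, + strand: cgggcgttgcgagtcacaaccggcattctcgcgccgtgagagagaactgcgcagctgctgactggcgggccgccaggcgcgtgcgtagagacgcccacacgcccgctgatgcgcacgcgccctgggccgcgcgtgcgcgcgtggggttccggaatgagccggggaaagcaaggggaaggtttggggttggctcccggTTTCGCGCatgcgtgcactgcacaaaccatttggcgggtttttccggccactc
E2F1, chr20:33686386-33686635, - strand: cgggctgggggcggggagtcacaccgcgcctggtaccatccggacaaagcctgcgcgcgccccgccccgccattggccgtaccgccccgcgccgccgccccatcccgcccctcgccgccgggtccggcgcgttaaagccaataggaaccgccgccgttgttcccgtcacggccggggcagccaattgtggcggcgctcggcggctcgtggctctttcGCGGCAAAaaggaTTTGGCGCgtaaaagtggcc
At least 1 word stood in 11 of 50 DNA replication genes with a promoter in the table (22%), against 4.62% of 8574 tested genes with one. Among the members that rose it was 5 of 25, and among those not called 6 of 22. CDC45 and UNG, the largest rises, held none of these 4 words in the window. They have 3 and 2 promoter entries, of which only 1 each was searched. A match is only a description of these letters.

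Of 58 listed replication-dependent histone genes, which supply histones in S phase, 21 were tested and 10 of these were higher (47.6%, against 15.9%). The filter uses the mean over all 6 libraries, siEZH2-1 included, so a low member can be tested because it rose. None of those tested had a negative log2 difference. The median log2 difference was 0.52, the highest of the lists with 10 or more members tested. Without 1 library 8, 7, 9 and 8 were higher. HIST1H2BJ stood at 16.25 and 17.50 FPKM with siEZH2-1 and at 4.21 and 4.96 FPKM with siNC. Both libraries were far above both controls, at 368% of the control mean (log2 difference 1.68, 95% interval 1.45 to 1.91, limma adjusted p = 2.43e-04). HIST1H2BD was at 13.12 and 14.55 FPKM against 4.09 and 5.19 FPKM, a log2 difference of 1.40. HIST1H2AG was at 12.54 and 11.36 FPKM against 4.48 and 4.43 FPKM, and HIST1H2AC at 21.41 and 21.20 FPKM against 9.95 and 10.50 FPKM. As for every called gene, no siEZH2-1 library overlapped a siNC library for these 4 genes. With siEZH2-2 HIST1H2AG was at 5.17 and 5.04 FPKM and HIST1H2BJ at 8.41 and 7.28 FPKM, lower than with siEZH2-1 by direct test (log2 differences -1.08 and -1.02, limma adjusted p = 3.9e-04 and 0.0014). Histone genes of 1 class are near copies of each other, so reads may be shared between them. Most of these transcripts end without a poly(A) tail, and how RNA was selected for sequencing is not given in the sources used here, so the part that selection plays in these values was not tested.

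HIST1H2BJ and HIST1H2AG, both among the largest histone rises, are transcribed in opposite directions from starts 248 bases apart on chromosome 6. The window before HIST1H2BJ is shown because it covers the DNA between both starts. The octamer ATTTGCAT and the TATA word TATAAA (or its reverse complement) are in capitals. E2F words are not marked here, and gcgcgaaa, the reverse complement of TTTCGCGC, stands in lower case.
HIST1H2BJ (H2BC11 in RefSeq), chr6:27132796-27133045, - strand, GRCh38.p14: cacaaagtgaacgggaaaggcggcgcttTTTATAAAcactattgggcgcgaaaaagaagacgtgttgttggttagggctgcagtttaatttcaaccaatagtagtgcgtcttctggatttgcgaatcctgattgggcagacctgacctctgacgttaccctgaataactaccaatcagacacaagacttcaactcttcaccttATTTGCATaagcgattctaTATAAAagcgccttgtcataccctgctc
The octamer, searched on both strands, stood in 7 of 19 tested histone genes with a promoter (36.8%) and in 1.24% of all. It was in 5 of 10 that rose and in 2 of 9 not called. TATAAA stood in 7 of 10 that rose and in 6 of 9 not called, against 4.92% of all. At least 1 of the 4 E2F words stood in 4 of the 19 (21.1%), against 4.62% of all. That was 3 of 10 that rose and 1 of 9 not called.

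Of 74 genes of G2 phase, mitosis and the kinetochore 16 were lower (21.6%, against 11.4% of all tested genes) and 11 higher (14.9%, against 15.9%). With a library left out 6, 3, 5 and 8 were lower and 9, 8, 8 and 10 higher. The median log2 difference was -0.08. ZW10, which recruits dynein to kinetochores and also acts in vesicle transport, rose from 9.15 and 9.85 to 32.2 and 29.6 FPKM. BIRC5, which encodes survivin, rose from 4.42 and 4.76 to 8.97 and 9.22 FPKM. BUB3, a checkpoint protein, fell from 78.1 and 77.9 to 45.3 and 45.5 FPKM, and CKAP2L, a spindle protein, from 17.9 and 16.0 to 10.5 and 9.60 FPKM. ZW10 and BUB3 moved furthest up and down among the tested members of this list.

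**Figure D3:**
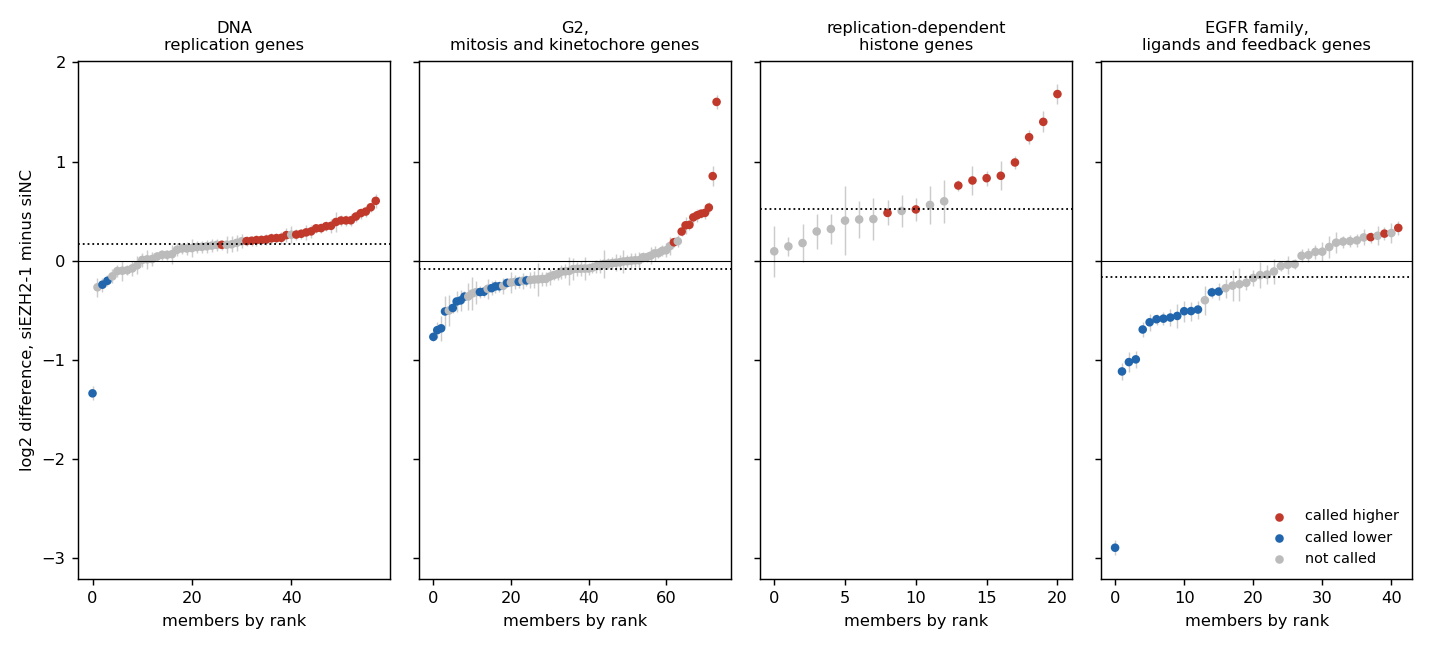
Log2 difference (siEZH2-1 minus siNC) of each tested member of 4 gene lists, ordered by size, with its standard error as a bar and the list's median as a dotted line. Medians are 0.17 for DNA replication, -0.08 for G2 and mitosis, 0.52 for histone genes and -0.16 for EGFR family genes, and CCND1 at -2.89 is the lowest point of the last panel.

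The 15 largest rises ran from 1.42 to 2.04 on the log2 scale. OGFR, the opioid growth factor receptor, stood at 21.32 and 24.69 FPKM with siEZH2-1 and at 4.59 and 5.07 FPKM with siNC (log2 difference 2.04, SE 0.09, limma adjusted p = 1.09e-04). TPM4, a tropomyosin of the actin cytoskeleton, stood at 99.2 and 98.0 FPKM against 23.7 and 23.7 FPKM. GANAB, the catalytic subunit of glucosidase II in the endoplasmic reticulum, stood at 133 and 136 FPKM against 38.9 and 37.9 FPKM. These 3 genes stood at 476%, 416% and 349.6% of their siNC means, and TPM4 and GANAB were the more abundant ones.

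NOLC1, a nucleolar phosphoprotein, rose from 34.3 and 35.4 to 112 and 113 FPKM. POLR2D, a subunit of RNA polymerase II, rose from 11.9 and 11.7 to 32.4 and 33.9 FPKM. PERP, a desmosome-associated p53 target, rose from 29.9 and 28.6 to 85.0 and 78.2 FPKM. G3BP2, a stress granule protein, rose by 1.49, RGS19, a regulator of G protein signalling, by 1.53, STX12, an endosomal syntaxin, by 1.42, and ZDHHC18, a palmitoyltransferase, by 1.42 on the log2 scale. MESDC2, an LDL receptor chaperone, rose by 1.44 and R3HCC1 by 1.43. HIST1H2BJ and ZW10, described above, are also among the 15. All 15 were also called higher with siEZH2-2 against the same siNC libraries, at log2 differences of 0.28 to 1.996. In direct tests 7 of the 15 differed between the siRNAs. Among them was PERP, at 36.0 and 35.2 FPKM with siEZH2-2. Its level there was lower than with siEZH2-1 by 1.17 on the log2 scale (95% interval 1.03 to 1.32).

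The 15 largest falls ran from -2.89 to -1.43. Besides CCND1, SLC7A5, SLC3A2 and MAT2B they held genes of vesicle transport, transcription and splicing. RAB12, a small GTPase of endosome traffic, stood at 3.43 and 3.25 FPKM against 17.58 and 16.22 FPKM with siNC (log2 difference -2.04, limma adjusted p = 4.79e-05). SEC23A, of the COPII coat that buds vesicles from the endoplasmic reticulum, stood at 2.86 and 2.40 FPKM against 14.70 and 12.40 FPKM (log2 difference -2.001, limma adjusted p = 2.48e-04). LEO1, a subunit of the PAF1 elongation complex, stood at 6.59 and 6.78 FPKM against 25.42 and 26.62 FPKM. For all 3 genes the siEZH2-1 libraries held between 19.4% and 25.7% of the control mean.

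TWISTNB, a subunit of RNA polymerase I, fell from 35.9 and 33.6 to 10.3 and 9.18 FPKM. RBM47, an RNA-binding protein of epithelial cells, fell from 21.0 and 19.5 to 6.35 and 5.36 FPKM. SFXN1, a mitochondrial serine carrier, fell from 47.1 and 45.6 to 14.8 and 14.3 FPKM. Levels of these 3 genes were 28.0%, 28.9% and 31.4% of control, and similar falls were seen for CHAMP1, a kinetochore attachment protein (log2 difference -1.57), COMMD2 (-1.52), FAM122B (-1.46), the splicing factor CDC40 (-1.43) and C12orf23 (-1.70).

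All 15 largest falls were less low with siEZH2-2 than with siEZH2-1 in the direct test, with log2 differences of siEZH2-2 from siNC between -1.40 and 0.21. Of the 83 called falls of at least 1, 68 (81.9%) differed between the siRNAs. Of the 76 called rises of at least 1, 23 (30.3%) did, against 16.3% of all tested genes. With siEZH2-2, 31 of these 83 falls were also called lower and 69 of these 76 rises also called higher. Over all tested genes 10.9% were called lower and 13.9% higher with siEZH2-2. Since these genes were picked for their size with siEZH2-1, the libraries that picked them also enter the difference, and no weight is put on these shares. The largest positive differences (siEZH2-2 minus siEZH2-1) among called genes were RAB12 at 1.89, C12orf23 at 1.74, LEO1 at 1.70, MAT2B at 1.70 and SFXN1 at 1.66. In the other direction TGFBR2, the type II TGF-beta receptor, stood at 40.6 and 37.8 FPKM with siEZH2-1, at 56.3 and 52.9 FPKM with siNC and at 8.66 and 9.07 FPKM with siEZH2-2. INSIG1, which restrains sterol synthesis, was at 50.5 and 45.9, 24.9 and 24.3, and 18.7 and 17.6 FPKM in the same order. TGFBR2 was thus lower than control with both siRNAs and by far the lowest with siEZH2-2, whereas INSIG1 lay above control with siEZH2-1 and below it with siEZH2-2. The phosphatase gene ALPP, a near copy of its family members, and MPZL3 had log2 differences of 0.55 and 0.92 with siEZH2-1 and of -0.74 and -0.31 with siEZH2-2. The cofilin gene CFL2 had -0.34 and -1.52, and its siEZH2-1 call was lost without siEZH2-1 replicate 2 (limma adjusted p = 0.0990) or siNC replicate 1 (0.0915).

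**Figure D4:**
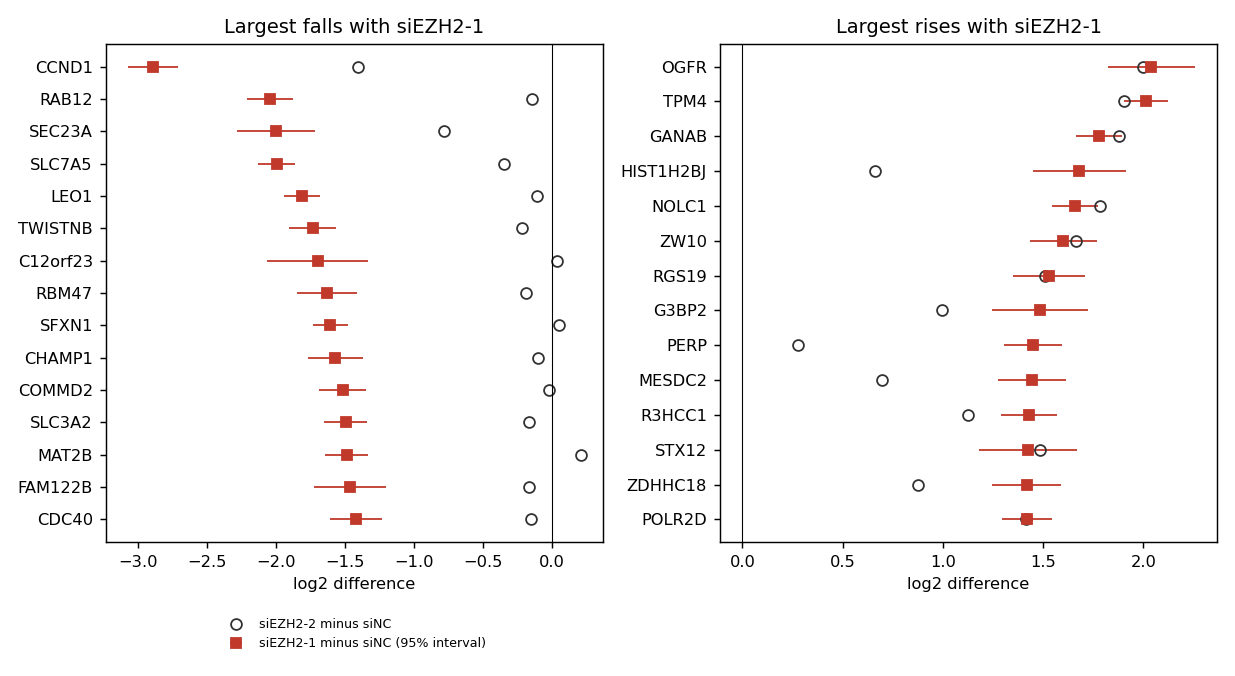
Log2 difference from siNC of the 15 largest falls (left) and 14 of the 15 largest rises (right) with siEZH2-1, as red squares with 95% intervals, and of the same genes with siEZH2-2, as open circles. Both share the siNC libraries. The circles of the falls lie between -1.40 and 0.21, and those of the rises between 0.28 and 1.996.

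Growth factor signalling genes were mostly lower where they changed. Of 42 tested genes of the EGFR family, its ligands and its feedback regulators, 15 fell (35.7%; 12, 10, 11, 11) and 3 rose (0, 0, 0, 0), with a median log2 difference of -0.16. Over all tested genes 11.4% fell, and the rises were 7.14% of this list, against 15.9%. DUSP4, a phosphatase that inactivates ERK, fell from 6.58 and 7.34 to 2.63 and 2.71 FPKM. ELK3, an ETS factor, fell from 21.6 and 19.3 to 10.2 and 8.97 FPKM, and PHLDA1 from 11.8 and 10.7 to 6.83 and 6.37 FPKM. The log2 differences were -1.12 for DUSP4, -1.02 for ELK3 and -0.69 for PHLDA1. CCND1 is also a member.

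TGF-beta receptors, SMADs and targets held the largest share of falls of any list, 14 of 33 (42.4%; 10, 8, 8, 11), with 3 rises (0, 0, 0, 1) and a median of -0.23. Over all tested genes 11.4% fell, and the rises were 9.09% of this list, against 15.9%. TGFB2, a ligand, fell from 21.7 and 18.8 to 9.10 and 7.58 FPKM. SMAD3, which carries the signal to the nucleus, fell from 12.6 and 11.8 to 6.68 and 6.43 FPKM, and ID1, a target of the BMP branch, from 11.4 and 13.2 to 6.15 and 6.19 FPKM. A ligand, a signal carrier and a target were thus each well below control. SMAD5, at a log2 difference of -0.60, lost its call without siEZH2-1 replicate 2 (limma adjusted p = 0.156) or siNC replicate 1 (0.154).

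The Hippo effectors YAP and TAZ with their targets were split, 10 of 30 lower (9, 4, 4, 9) and 8 higher (3, 5, 4, 3). These shares are 33.3% lower, against 11.4% of all tested genes, and 26.7% higher, against 15.9%. CYR61, a matricellular target, rose from 87.5 and 85.5 to 138 and 147 FPKM. STK3, a Hippo kinase, fell from 4.52 and 3.94 to 1.95 and 1.75 FPKM. TEAD1, the DNA-binding partner, had a log2 difference of -0.90 and lost its call without siEZH2-1 replicate 2 (limma adjusted p = 0.0629) or siNC replicate 1 (0.0589). The list was therefore not on one side.

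Among 28 tested NF-kB subunits, targets and inflammatory mediators, 11 fell (9, 7, 7, 8) and 4 rose (2, 2, 2, 3). In percent, 39.3% fell, against 11.4% of all tested genes, and 14.3% rose, against 15.9%. SAA1, an acute phase protein, fell from 11.2 and 13.8 to 6.10 and 5.88 FPKM, and TNFAIP2, a TNF target, from 17.2 and 18.7 to 9.60 and 10.1 FPKM. NFKBIB, which encodes an inhibitor of NF-kB, rose from 14.5 and 14.2 to 25.6 and 30.3 FPKM, and TRAF2, an adaptor of TNF receptors, from 7.64 and 8.78 to 13.7 and 16.5 FPKM.

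Interferon-stimulated genes were seldom higher, 1 of 31 (1, 0, 0, 2), with 7 lower (5, 3, 3, 3). That is 3.23% higher, against 15.9% of all tested genes, and 22.6% lower, against 11.4%. IFIT3 and DDX58, which encodes the RNA sensor RIG-I, fell by 0.59 and 0.57 on the log2 scale. PARP14, at -0.42, lost its call without siEZH2-1 replicate 2 (limma adjusted p = 0.156), siNC replicate 1 (0.130) or siNC replicate 2 (0.0741). UBE2L6, the conjugating enzyme of ISG15 and the 1 rise of the list, was at 0.45 and lost its call without siEZH2-1 replicate 2 (0.0709) or siNC replicate 1 (0.0644).

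In the HLA class I presentation list 5 of 26 were lower (5, 1, 1, 4) and 3 higher (2, 0, 0, 3). Lower members made up 19.2%, against 11.4% of all tested genes, and higher ones 11.5%, against 15.9%. ERAP1, which trims peptides for presentation, fell from 5.45 and 4.92 to 2.68 and 2.50 FPKM. ULBP3, a ligand of an NK cell receptor, had a log2 difference of -0.72, ERAP2 one of -0.45 and CD274, which encodes PD-L1, one of -0.44. All 3 calls were lost without siEZH2-1 replicate 2 (limma adjusted p = 0.0998, 0.0521 and 0.0654) or siNC replicate 1 (0.0970, 0.0507 and 0.0613).

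Squamous transcription factors fell more often than they rose, 10 of 29 (6, 4, 5, 6) against 4 (3, 2, 2, 4). The falls were 34.5%, against 11.4% of all tested genes, and the rises 13.8%, against 15.9%. TFAP2A, a factor of surface epithelium, fell from 7.43 and 7.30 to 3.90 and 3.97 FPKM, and NOTCH2, a Notch receptor, from 9.24 and 8.04 to 4.49 and 3.96 FPKM. ID1 and PAX9, given above, are members too. Of 44 keratins, junction and basement membrane genes 15 were lower (34.1%; 11, 8, 10, 10) and 3 higher (4, 3, 3, 3). The higher members were 6.82% of this list. ITGA6, the laminin-binding integrin of hemidesmosomes, fell from 57.7 and 50.9 to 29.8 and 24.8 FPKM, and DSC3, a desmosomal cadherin, from 21.4 and 18.8 to 11.2 and 9.27 FPKM. PERP, by contrast, was 1 of the 15 largest rises. ITGA2, a collagen-binding integrin, had a log2 difference of -1.02 and lost its call without siEZH2-1 replicate 2 (limma adjusted p = 0.0563) or siNC replicate 1 (0.0527).

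Of 54 terminal differentiation genes 15 were tested, 2 higher (2, 0, 0, 2) and 2 lower (2, 1, 1, 2). Each is 13.3% of those tested, against 15.9% higher and 11.4% lower over all tested genes. KRT80, a keratin of differentiating epithelium, fell by 0.32 on the log2 scale. EVPL at 0.45, EMP1 at -0.38 and KLK5 at 0.30 lost their calls without siEZH2-1 replicate 2 (limma adjusted p = 0.0826, 0.0584 and 0.147) or siNC replicate 1 (0.0731, 0.0556 and 0.138).

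Mesenchymal transition genes had 11 of 30 lower (9, 6, 6, 8) and 3 higher (3, 1, 2, 1). As shares, 36.7% were lower, against 11.4% of all tested genes, and 10% higher, against 15.9%. THBS1, a matrix glycoprotein, fell from 132 and 122 to 80.4 and 74.4 FPKM, and PLOD2, a collagen lysyl hydroxylase, from 11.7 and 9.89 to 6.98 and 6.23 FPKM. TPM4 is the rise that stands far apart in this list.

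Among p53-responsive genes 10 of 36 fell (9, 6, 6, 9) and 4 rose (4, 3, 3, 4). In percent, 27.8% fell, against 11.4% of all tested genes, and 11.1% rose, against 15.9%. MDM2, the ligase that degrades p53, fell from 13.5 and 11.6 to 7.42 and 5.74 FPKM, and GADD45A, a stress protein, from 20.4 and 20.8 to 13.1 and 14.1 FPKM, beside CDKN1A. PERP rose, as given above, so the list was not on one side. Of 36 apoptosis regulators 6 were higher (16.7%, against 15.9% of all tested genes; 3, 3, 3, 4) and 6 lower (16.7%, against 11.4%; 5, 1, 1, 4). CYCS, which encodes cytochrome c, rose from 117 and 106 to 172 and 156 FPKM. APAF1, the scaffold that cytochrome c activates, had a log2 difference of -0.85 and BIRC2, a caspase inhibitor family member, one of -0.47. Both calls were lost without siEZH2-1 replicate 2 (limma adjusted p = 0.0654 and 0.0610) or siNC replicate 1 (0.0628 and 0.0579).

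Lipid genes held some of the larger single changes. In sterol and fatty acid synthesis 9 of 40 rose (5, 5, 5, 8) and 6 fell (3, 2, 3, 4). The rises were 22.5%, against 15.9% of all tested genes, and the falls 15%, against 11.4%. SCD, the desaturase that makes oleate, fell from 127 and 119 to 60.4 and 53.5 FPKM (log2 difference -1.10, limma adjusted p = 5.53e-04). STARD4, a cholesterol carrier, fell from 15.4 and 12.7 to 7.26 and 5.64 FPKM, while MVD, an enzyme of the mevalonate pathway, rose from 8.41 and 9.89 to 15.9 and 16.1 FPKM. SCD and STARD4 were higher with siEZH2-2 than with siEZH2-1 by 1.04 and 1.08 on the log2 scale (limma adjusted p = 8.5e-04 and 0.0036).

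Ceramide and sphingolipid enzymes had 11 of 33 lower (6, 5, 5, 7) and 2 higher (2, 2, 2, 2). Lower members made up 33.3%, against 11.4% of all tested genes, and higher ones 6.06%, against 15.9%. UGCG, which makes glucosylceramide, fell from 65.2 and 56.6 to 32.0 and 27.1 FPKM. KDSR and SPTLC2, enzymes of the first steps of ceramide synthesis, fell by 0.84 and 0.60, and SGMS1, a sphingomyelin synthase, by 0.66 on the log2 scale. Enzymes from the first step to the head group were thus among the falls.

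In glycolysis and the hypoxia response 9 of 43 fell (7, 2, 2, 5) and 6 rose (5, 3, 3, 5). The glucose carriers moved apart, SLC2A3 up from 7.71 and 7.58 to 14.8 and 12.4 FPKM and SLC2A1 down from 69.02 and 74.35 to 51.9 and 50.4 FPKM. PFKL, a phosphofructokinase, rose by 0.72 and ERO1L, an oxidase of the endoplasmic reticulum induced by hypoxia, by 0.58 on the log2 scale. In the NRF2 antioxidant pathway 7 of 37 fell (4, 4, 4, 5) and 3 rose (2, 2, 1, 2). The falls were 18.9%, against 11.4% of all tested genes, and the rises 8.11%, against 15.9%, with a median log2 difference of 0.01. NFE2L2, which encodes NRF2, fell by 0.45 on the log2 scale. Of the list members TXNRD1 and GSR fell by 0.62 and 0.51, and ME1, malic enzyme, rose by 0.68.

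Endoplasmic reticulum chaperones and unfolded protein response genes included 10 rises of 45 (4, 2, 3, 5) and 3 falls (2, 2, 2, 2). That is 22.2% higher, against 15.9% of all tested genes, and 6.67% lower, against 11.4%. Beside GANAB, EDEM1, which sends misfolded glycoproteins to degradation, fell from 14.4 and 13.2 to 6.77 and 6.51 FPKM, and HERPUD1, of the same degradation route, from 10.7 and 12.2 to 6.88 and 7.16 FPKM. In vesicle coats and cargo receptors 12 of 56 fell (10, 5, 5, 10) and 11 rose (4, 1, 1, 4). In this list 21.4% fell and 19.6% rose. After SEC23A the largest were MCFD2, a cargo receptor for clotting factors, at -0.77, BET1, a SNARE, at -0.60, and ARF4, a small GTPase, at -0.50, all of them falls.

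Of 57 tested autophagy and lysosome genes 7 were higher (12.3%, against 15.9% of all tested genes; 4, 2, 3, 4) and 3 lower (5.26%, against 11.4%; 1, 0, 1, 1). ULK1, the kinase that starts autophagy, rose from 2.83 and 3.12 to 5.39 and 5.5 FPKM, and WIPI2, of the early autophagosome, from 7.92 and 8.16 to 12.9 and 12.8 FPKM. UVRAG, at a log2 difference of -0.51, lost its call without siEZH2-1 replicate 2 (limma adjusted p = 0.0521). ATP6V0D1, a proton pump subunit at 0.37, lost it without siEZH2-1 replicate 2 (0.0982) or siNC replicate 1 (0.0867).

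The machinery that processes and uses small RNAs had 6 of 36 lower (3, 2, 2, 5) and 4 higher (1, 1, 1, 1). As shares, 16.7% were lower, against 11.4% of all tested genes, and 11.1% higher, against 15.9%. TNRC6A, the scaffold that Argonaute proteins recruit to silence messages, fell from 19.2 and 17.6 to 7.28 and 6.20 FPKM (log2 difference -1.33, limma adjusted p = 5.92e-04). DROSHA, which cuts primary microRNAs, rose from 11.98 and 11.45 to 20.2 and 20.5 FPKM. DDX6 at -0.56 and ZCCHC6 at -0.47 lost their calls without siEZH2-1 replicate 2 (limma adjusted p = 0.180 and 0.139) or siNC replicate 1 (0.168 and 0.132), and ZCCHC6 also without siEZH2-1 replicate 1 (0.0530).

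Ribosomal protein genes of the cytosol had the lowest share of calls of the lists with 10 or more members tested, 3 of 78 higher (1, 2, 1, 1) and 0 lower by limma, with a median log2 difference of 0.07. The share called higher was 3.85%, against 15.9% of all tested genes. At an unadjusted p under 0.05, 7 were higher and 0 lower, and with quantile normalization 2 were called lower. RPS26 rose by 0.37 on the log2 scale. RPL11, at 0.31, lost its call in all 4 fits with a library left out (limma adjusted p = 0.0586 to 0.179). Both have processed copies elsewhere in the genome that can share reads.

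Of 73 mitochondrial ribosomal protein genes 17 rose (23.3%; 10, 4, 6, 9) and 4 fell (5.48%; 3, 3, 4, 3). Of 73 nuclear respiratory chain genes 14 rose (19.2%; 9, 3, 4, 11), near the 15.9% of all tested genes, and 3 fell (4.11%; 2, 2, 1, 2). MRPS34 rose from 79.1 and 90.2 to 123 and 139 FPKM, MRPL36 and MRPL49 rose by 0.56 and 0.52, and MRPL11 fell by 0.58 on the log2 scale. NDUFA8, a subunit of complex I, rose from 49.1 and 51.7 to 77.9 and 81.8 FPKM. NDUFAB1, the mitochondrial acyl carrier protein, fell from 62.4 and 67.4 to 25.6 and 27.1 FPKM (log2 difference -1.27, limma adjusted p = 2.48e-04). With siEZH2-2 NDUFAB1 was at 66.6 and 59.2 FPKM.

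The 15 tested transcripts of the mitochondrial genome all had a positive log2 difference, from 0.12 to 0.48, and 4 were called higher (0, 0, 1, 0), or 11 when only the 4 libraries compared were fitted. Those called higher in the main fit were 26.7% of the 15, against 15.9% of all tested genes. With quantile normalization the median log2 difference of the 15 was 0.08 in place of 0.33. All listed genes with an MT- symbol, tested or not, made up 9.56% and 10.3% of all FPKM with siEZH2-1 and 8.43% and 8.37% with siNC. MT-ND6 was at 365 and 393 FPKM against 276 and 266 FPKM, with a limma adjusted p of 0.0447. The calls for MT-ND1, MT-ND4 and MT-ND6 were lost with each library left out (0.0658 to 0.228), and that for MT-ND5 was kept only without siNC replicate 1 (0.0337). The share of mitochondrial transcripts in RNA differs between libraries as a block, and its part in these differences was not tested.

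**Figure D5:**
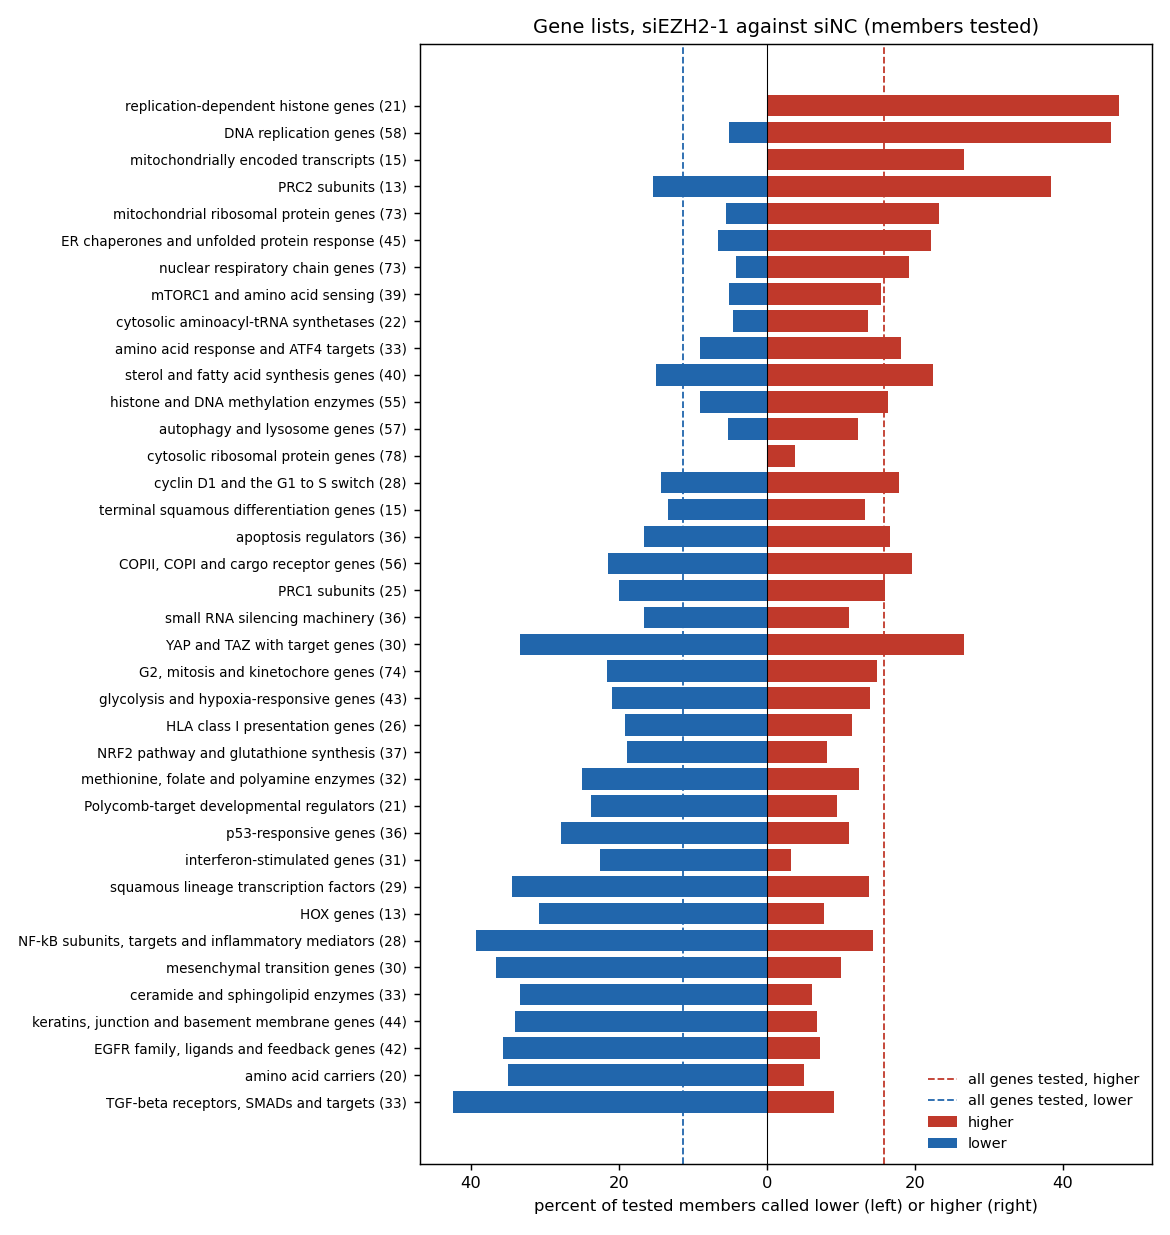
Percent of the tested members of each gene list with at least 10 tested members that were called higher (red, right) or lower (blue, left) with siEZH2-1, with the number tested in brackets. Dashed lines mark 15.9% and 11.4%, the shares over all tested genes. Histone (47.6%) and DNA replication (46.6%) genes were most often higher, and TGF-beta genes (42.4%) most often lower.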

How the data were processed

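RNA was sequenced from KYSE510 cells, 2 libraries per siRNA. The deposited table holds 1 column of FPKM per library to 2 decimals, as given by the authors. The labels do not name the unit, which was inferred from the values. Per the submitters' processing notes, the tools of the series include STAR, Trim Galore, Picard, Bowtie, Bowtie2 and SEACR and the builds hg38 and hg19, with no roles given. The counting program, gene lengths and strand setting are not given in the sources used here. A further 6 columns of per-sample values, from the LAT1 knockdowns, were not used, and the CUT&Tag samples were not analysed here.

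A count-based test was planned only for counts, so log2(FPKM + 1) was fitted with limma-trend (limma 3.58.1, R 4.3.3) over genes averaging 1 FPKM or more, with siEZH2-1, siEZH2-2 and siNC as groups. Tests are two-sided, adjusted (Benjamini-Hochberg) over all 11585 genes and called under 0.05. An exact permutation test of 2 against 2 cannot go below p = 0.333, so calls rest on spread pooled over groups and genes. Depth was estimated from steps between low values of short RNA genes. With the best of many depths searched, 84.2% to 87.2% of these values were whole reads within 0.12 reads, where a depth fixed beforehand would give 24%. The limma fit, but not the depth estimate, was tested on simulated data.

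The comparison, the 41 gene lists (1766 symbols, 1765 found, 1369 tested) and the naming rule were chosen with earlier results of these data known. The rule named EZH2, EZH1, EED, SUZ12, SLC7A5, SLC3A2, CCND1 and MAT2A, the 15 largest rises and falls with an average log2 of at least 2 and no overlap, up to 4 called members per list, and the 5 largest differences per direction between the siRNAs. A few genes picked by it are not reported here. The genes ATF4, CDK4 and SUZ12P were chosen with their values in view. The alternatives tried were a pseudocount of 0.1, quantile normalization, a filter at 5 FPKM, no filter, only the 4 libraries compared, a replicate block, a minimum log2 difference of 1 and each library left out. Plots were made with Python 3.11.15 and matplotlib 3.10.9.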

Additional observations from a re-analysis of the deposited data

How the results depend on the processing

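The fall of EZH2 stayed called under every alternative tried, at log2 differences of -1.29 to -1.13. The count of 3156 called genes (1841 higher, 1315 lower) became 1604 (971 and 633) without a filter, and 159 with a minimum absolute log2 difference of 1. Leaving out 1 of the 4 libraries compared gave 1201 to 2036 calls, 715 to 1161 higher and 486 to 875 lower, and leaving out siEZH2-2 replicate 1 or 2, which enter only the spread, gave 1733 or 1740 higher and 1298 or 1297 lower. The genes that differed between the siRNAs numbered 1883, 836 without a filter and 650 to 1238 with 1 siEZH2-1 or siEZH2-2 library left out. Leaving out the filter raises the number of genes tested to 29763, and leaving out a library lowers the number of samples. Quantile normalization gave 1615 higher and 1518 lower, so that 51.5% of calls were higher in place of 58.3%, and a median over all genes of 0.01 in place of 0.03. With a pseudocount of 0.1, 3147 genes were called. Without a filter 14 DNA replication genes in place of 27 and 6 histone genes in place of 10 were higher. Of 165 called genes named by the rule, 38 lost the call without a filter, and no log2 difference changed sign under the alternatives run. Replicate numbers gave no common pairing over the 3 groups. Deviations of same-numbered libraries correlated at 0.35 between siEZH2-1 and siNC, -0.35 between the siRNAs and -0.34 between siEZH2-2 and siNC. A replicate block assumes the same shift in every group, so it cannot take up these opposite signs. With the replicate number as a block 2007 genes were called, 1174 higher and 833 lower, 1021 differed between the siRNAs, and 15 named genes lost the call. Depth limits low genes: at the estimated depths 1 read of a 1 kb transcript is 0.0367 to 0.0470 FPKM.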

Other observations

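Genes with a ZNF symbol, most of which encode zinc finger transcription factors, were looked at after their values were seen. Of 303 tested, 101 (33.3%) were higher with siEZH2-1 and 10 were lower, against 15.9% and 11.4% of all genes, with a median log2 difference of 0.18 against 0.03. Many belong to large families of similar sequence, so reads may be shared between members.

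The genes next to CCND1, SLC7A5 and SLC3A2, 3 of the 15 largest falls, were read from the RefSeq gene order. Of 12 neighbours of CCND1, 4 were tested and 0 were called by limma (0 also at an unadjusted p under 0.05), with log2 differences from -0.18 to 0.08. Of 12 neighbours of SLC7A5, 6 were tested and 1 was called, with log2 differences from 0.07 to 0.48. Of 12 neighbours of SLC3A2, 5 were tested and 2 were called, with log2 differences from -0.09 to 0.29. None of the called neighbours of SLC7A5 and SLC3A2 was lower.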
